A study of Mus musculus with 8 samples.

Results

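The digestive enzymes of the exocrine pancreas and the factors that switch them on were followed in 8 pancreatic tumors. The set was a list of 33 mouse gene symbols, given by name, with earlier results of these data known. It held trypsinogens, chymotrypsinogens, elastases, carboxypeptidases, lipid enzymes, amylases, a ribonuclease, proteins of the secretory granule, a trypsin inhibitor, and the transcription factors Ptf1a, Bhlha15, Rbpjl and Nr5a2. Of the 33 genes, 31 were found in the table of 29968 genes, and 24 of these were among the 16610 genes with enough counts for the main test between genotypes. The expression of Prss1 and Cela3a was not analysed here.

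RNA was sequenced from KPC tumors of 4 wild-type (WT) C57BL/6J mice and 4 C57BL/6J mice lacking complement component C3 (C3-/-), 1 tumor per mouse. All hosts were male, 12 weeks old, and received 250000 KPC FC1245 cells, a mouse pancreatic cancer cell line, in 50 μL of PBS in the tail of the pancreas, with an endpoint at day 14. The deletion was in the host alone, and the implanted cells of both groups kept the C3 gene. The comparison of the genotypes asked whether loss of C3 from the host changed the tumor, and no tumor-free pancreas was part of it.

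Acinar cells make and store the enzymes that digest protein, fat, starch and RNA in the gut, most of them as inactive zymogens in granules. The genes of these enzymes are driven together by the PTF1 complex, in which Ptf1a and its partner Rbpjl bind DNA jointly, and by the nuclear receptor Nr5a2, while Bhlha15 (Mist1) sets up the secretory machinery of the cell. The PTF1 complex reads a pair of short motifs, an E-box (CANNTG) bound by Ptf1a with a common partner and a TC-box (TTTCCC) bound by Rbpjl. In bulk tumor RNA, a tumor with fewer acinar cells and a tumor whose acinar cells hold less RNA of these genes cannot be told apart.

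To show these motifs, the 150 bases that end just before the transcription start are printed for 6 enzyme genes, all of them among the 8 enzyme promoters with both motifs within 250 bases, and for Rbpjl. The bases run 5′ to 3′ on the strand of the gene, from RefSeq (GRCm38.p6, an older build than that of the counts), and capitals mark each E-box and each TC-box on either strand. Prss2 lay at chr6:41521626-41521775 (+), Cpa1 at chr6:30639068-30639217 (+), Cel at chr2:28563404-28563553 (-) and Cela2a at chr4:141826006-141826155 (-). Cela1 lay at chr15:100687921-100688070 (-), Ctrb1 at chr8:111691011-111691160 (-) and Rbpjl at chr2:164403044-164403193 (+).
Prss2: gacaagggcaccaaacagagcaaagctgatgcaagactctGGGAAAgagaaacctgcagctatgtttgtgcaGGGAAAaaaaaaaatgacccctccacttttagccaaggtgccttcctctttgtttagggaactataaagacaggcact
Cpa1: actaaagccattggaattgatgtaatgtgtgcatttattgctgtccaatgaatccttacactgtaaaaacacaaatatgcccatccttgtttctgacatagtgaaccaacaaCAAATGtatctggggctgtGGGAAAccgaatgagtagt
Cel: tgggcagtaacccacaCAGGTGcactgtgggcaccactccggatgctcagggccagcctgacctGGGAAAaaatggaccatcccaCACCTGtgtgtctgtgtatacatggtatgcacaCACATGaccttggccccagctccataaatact
Cela2a: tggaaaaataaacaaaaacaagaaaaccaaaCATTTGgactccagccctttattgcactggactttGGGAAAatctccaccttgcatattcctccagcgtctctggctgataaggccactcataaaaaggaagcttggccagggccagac
Cela1: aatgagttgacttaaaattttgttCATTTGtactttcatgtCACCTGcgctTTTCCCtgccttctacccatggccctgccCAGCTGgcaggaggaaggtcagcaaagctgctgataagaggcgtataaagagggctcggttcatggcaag
Ctrb1: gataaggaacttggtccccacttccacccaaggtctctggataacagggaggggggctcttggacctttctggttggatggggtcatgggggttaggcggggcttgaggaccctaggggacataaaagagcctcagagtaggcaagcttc
Rbpjl: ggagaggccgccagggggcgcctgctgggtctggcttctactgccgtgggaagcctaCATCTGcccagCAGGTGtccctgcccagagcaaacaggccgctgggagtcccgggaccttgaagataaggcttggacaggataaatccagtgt

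Cel, Cela1, Cela2a and Cpa1 carried at least 1 E-box and 1 TC-box within these 150 bases, and Prss2 carried 2 TC-boxes. Ctrb1 carried neither motif in this window and had both of them within 250 bases of its start. Rbpjl carried 2 E-boxes and no TC-box. RefSeq promoters were found for 27 of the 33 genes (28 windows, with 2 for Nr5a2). Over the 250 bases before the start, an E-box together with a TC-box was found in 8 of 23 promoters of enzymes and granule proteins, those of Prss1 and Cela3a included, and in 0 of the 5 windows of the transcription factors, against 14.24% of all 32841 mouse promoters of the same length. The E-box was in 19 of 23 (66.23% of all promoters) and in 4 of the 5 windows of the factors. The TC-box was in 8 of 23 (21.95%), the nuclear receptor half-site AAGGTCA in 3 of 23 (4.08%), both read on either strand, and a TATAAA on the strand of the gene in 8 of 23 (7.59%). In the windows of the factors these 3 motifs were found in 0 of 5. A match of letters is a description and does not show that a factor was bound.

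Total counts were between 13266029 and 23354212 per tumor, and no library was a repeat of another. C3 was at 210 to 426 CPM (counts scaled to a common normalized library total) in WT tumors and at 100 to 134 CPM in C3-/- tumors, and the groups did not overlap. In edgeR's quasi-likelihood test C3 changed by -1.42 on the log2 scale (SE 0.23, Benjamini-Hochberg adjusted p = 0.933), and it was among the genes called by DESeq2. A single tumor stood apart in the acinar genes, C3-/- replicate 1. It was known from earlier results to do so, and its differences from the other tumors are given as a description.

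The acinar genes fell into 3 levels across the 8 tumors. Together the 31 genes took 0.247% of all counts in C3-/- replicate 1 (95% Wilson interval 0.245 to 0.249), between 0.0230% and 0.0743% in the WT tumors, and between 0.00477% and 0.00786% in C3-/- replicates 2 to 4. The intervals of these shares cover counting error only. By summed CPM, the members were at 2580 in C3-/- replicate 1. They were at 739, 230, 474 and 255 in WT replicates 1 to 4, and at 76.6, 49.7 and 46.2 in C3-/- replicates 2 to 4. All 31 genes had a count in C3-/- replicate 1, between 27 and 30 in each WT tumor, and 22, 16 and 20 in C3-/- replicates 2, 3 and 4.

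**Figure D1:**
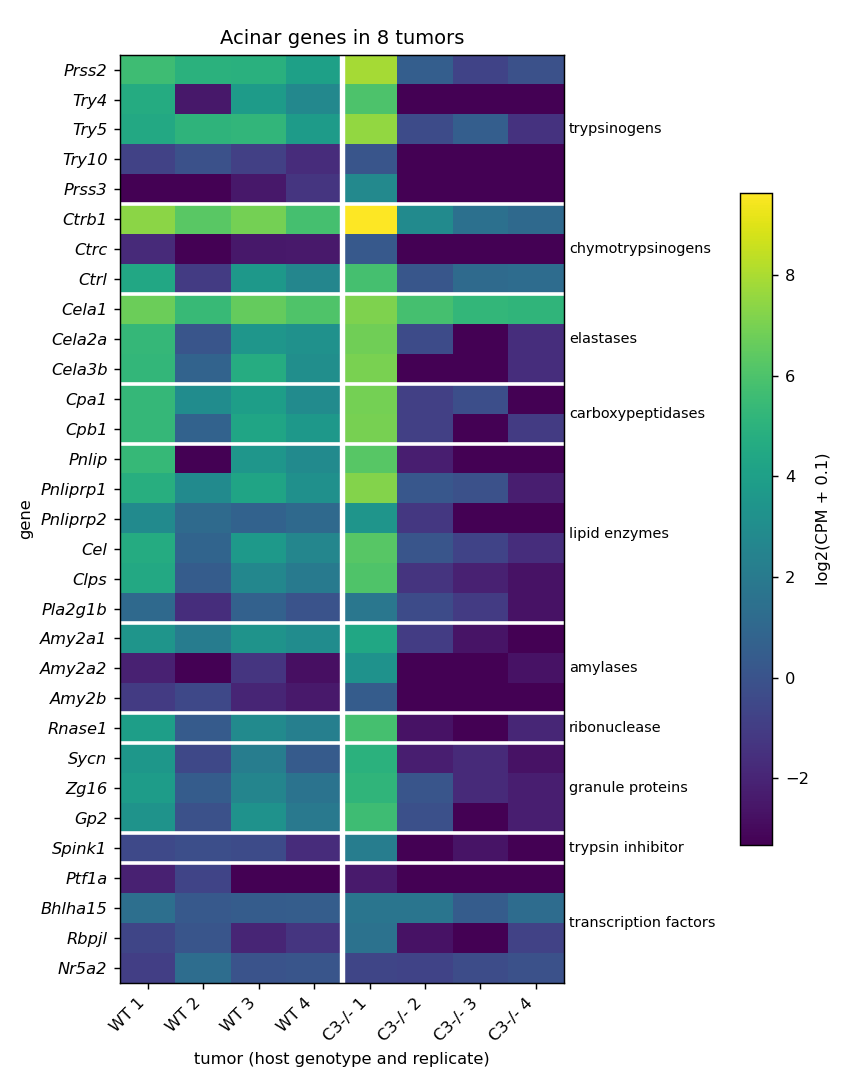
Level of each of the 31 acinar genes (rows, grouped by role) in each of the 8 tumors (columns), as log2 of CPM plus 0.1, with darker colors for lower levels. C3-/- replicate 1 has the brightest column, and the 3 other C3-/- tumors are darker than the WT tumors in most genes, with Cela1 the brightest in each of them.

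Of the 31 genes, 29 were highest of all 8 tumors in C3-/- replicate 1, where it was the highest for 15.2% of all 29968 genes. The exceptions were Ptf1a and Nr5a2. All 4 WT tumors were above each of C3-/- replicates 2 to 4 for 20 of the 31, against 4.27% of all genes. The remaining 11 were Prss3, Ctrc, Ctrl, Cela1, Pnlip, Pla2g1b, Amy2a2 and the 4 transcription factors. For 0 of the 31 did the 2 genotypes separate over all 8 tumors, against 2.92% of all genes. In those 29 genes C3-/- replicate 1 lay above every WT tumor, and among the WT tumors in Ptf1a and Nr5a2.

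Among the trypsinogens, the precursors of the protease that activates all other zymogens, Prss2 had the most counts summed over the 8 tumors, with Try5 above it in WT replicates 2 and 3 and C3-/- replicate 3. Prss2 (ENSMUSG00000057163, chromosome 6 from 41498721 to 41502013 of mm39) had 48.6, 31.0, 30.3 and 16.2 CPM in WT replicates 1 to 4. It had 239 CPM in C3-/- replicate 1 and 1.34, 0.504 and 0.820 CPM in C3-/- replicates 2 to 4. The WT tumors thus lay between C3-/- replicate 1 and the others with no overlap, and Try5 had the same order, at 13.7 to 36.3 CPM in WT tumors, 186 CPM in C3-/- replicate 1 and 0.273 to 1.39 CPM in the rest. Try4 and Try10 had 0 counts in each of C3-/- replicates 2 to 4. In WT replicate 2, Try4 was down to 1 count, while the other WT tumors had 155 to 398 counts. Prss3 was close to absent in WT tumors too, at 0, 0, 1 and 7 counts, and had 143 in C3-/- replicate 1. Try4 and Try5 share 19.1% of the 150-base windows of the Try4 transcripts, and Prss3 shares 31.2% of its windows with other trypsinogens, so counts of these genes could be exchanged between copies.

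Chymotrypsinogen Ctrb1 (ENSMUSG00000031957, chromosome 8 from 112413151 to 112417642) was the most abundant acinar transcript per length in all WT tumors and in C3-/- replicate 1. Its level was 165, 80.7, 120 and 55.7 CPM in WT replicates 1 to 4, 797 CPM in C3-/- replicate 1, and 7.22, 2.65 and 2.02 CPM in C3-/- replicates 2 to 4. The groups again ran in the order C3-/- replicate 1, WT, other C3-/- tumors. Pooled over tumors, C3-/- replicate 1 was 199-fold above C3-/- replicates 2 to 4 (95% interval 174 to 230, counting error only) and 7.96-fold above the WT tumors. Ctrl, a chymotrypsin-like protease, kept a low level in all of C3-/- replicates 2 to 4 (1.01, 2.14 and 2.30 CPM), and it was lower still in WT replicate 2 (0.377 CPM). Ctrc, which tunes trypsin activity, was seldom counted, with at most 3 counts in any tumor but C3-/- replicate 1, which had 24.

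The elastases did not move as 1 group. Cela2a and Cela3b had 114 and 129 CPM in C3-/- replicate 1 and at most 0.672 and 0.219 CPM in the other C3-/- tumors. Cela1 (ENSMUSG00000023031, chromosome 15 from 100572302 to 100585802), an elastase gene that is also known to be expressed outside the pancreas, had 106, 42.7, 96.5 and 66.5 CPM in WT replicates 1 to 4, 141 CPM in C3-/- replicate 1 and 55.4, 38.0 and 35.4 CPM in C3-/- replicates 2 to 4. WT replicate 2 lay within the range of the latter 3 tumors. In Cela1, C3-/- replicate 1 was 3.27-fold above C3-/- replicates 2 to 4 (95% interval 3.09 to 3.45), the smallest ratio of the 27 genes that are not transcription factors. Cela1 made up 72.3 to 76.7% of the counts of the acinar genes in C3-/- replicates 2 to 4, 14.4 to 26.1% in WT tumors and 5.46% in C3-/- replicate 1. Without Cela1, the 27 genes were reduced to 313, 155 and 131 counts in C3-/- replicates 2, 3 and 4, against 51992 counts in C3-/- replicate 1 and 2415 to 10110 in WT tumors.

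Carboxypeptidases trim amino acids from the ends of peptides. Cpa1 (ENSMUSG00000054446, chromosome 6 from 30639217 to 30645362) had 39.7, 7.91, 15.1 and 7.53 CPM in WT replicates 1 to 4, 121 CPM in C3-/- replicate 1 and 0.448, 0.756 and 0 CPM in C3-/- replicates 2 to 4. Cpb1 had 125 CPM in C3-/- replicate 1 and 1.58 to 39.0 CPM in WT tumors. Both markers chosen for the cell type, Ctrb1 and Cpa1, were present in every WT tumor and in C3-/- replicate 1, and Cpa1 was at 0 counts in C3-/- replicate 4.

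A group of 6 genes acts on lipids. Pnliprp1 (a relative of the pancreatic lipase with little activity of its own) had the most counts of these summed over the 8 tumors, with Pnlip above it in WT replicate 1 and Cel in C3-/- replicate 4. It was at 27.8, 7.31, 19.1 and 8.93 CPM in WT replicates 1 to 4, 150 CPM in C3-/- replicate 1 and 1.06, 0.819 and 0.109 CPM in C3-/- replicates 2 to 4. Pnlip, the main pancreatic lipase, had 1668 counts in C3-/- replicate 1 and 2 counts in the other 3 C3-/- tumors together, a ratio of 2030 with a wide interval (561 to 16773). It was also at 0 counts in WT replicate 2, where the other WT tumors had 147 to 653. Clps, the cofactor of the lipase, and Cel, which splits sterol esters, fell in the common order with 66.7 and 76.2 CPM in C3-/- replicate 1 and at most 0.280 and 0.952 CPM in the other C3-/- tumors. Pnliprp2 was at 10.7 CPM in C3-/- replicate 1, 1.58 to 7.34 CPM in WT tumors and at most 0.336 CPM in the rest. Pla2g1b, a phospholipase, had the narrowest range of the lipid enzymes, at 3.37 CPM in C3-/- replicate 1 and 0.0547 to 2.05 CPM elsewhere.

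The amylase genes form a cluster of copies on chromosome 3. Of the 150-base windows of the transcripts of Amy2a1 and Amy2a2, 94.2% and 100% occur in other amylase genes, so that their counts are uncertain gene by gene, against 2.998% for Amy2b, which is annotated as a pseudogene. Amy2a1 had 10.9, 4.22, 10.2 and 7.74 CPM in WT replicates 1 to 4, 20.7 CPM in C3-/- replicate 1 and 0.392, 0.0630 and 0 CPM in C3-/- replicates 2 to 4. Amy2a2 went from 0 to 4 counts in WT tumors to 209 in C3-/- replicate 1, a ratio over WT of 92.4 that stood out from the 2.50 of Amy2a1. Summed over the 3 amylases the levels were 11.4, 4.82, 10.6 and 7.87 CPM in WT tumors, 31.7 CPM in C3-/- replicate 1 and 0.392, 0.0630 and 0.0547 CPM in the others.

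The ribonuclease gene Rnase1 had 15.3, 1.21, 7.31 and 4.81 CPM in WT replicates 1 to 4 and 55.9 CPM in C3-/- replicate 1. In the other C3-/- tumors it had 0.0560, 0 and 0.164 CPM. Of the proteins of the zymogen granule, Gp2, a glycoprotein of its membrane, had 163, 11, 127 and 85 counts in WT replicates 1 to 4, 1030 counts in C3-/- replicate 1 and 14, 0 and 2 counts in C3-/- replicates 2 to 4. Sycn and Zg16, a granule protein and a lectin of the granule, had 30.8 and 36.0 CPM in C3-/- replicate 1 and at most 0.189 and 0.952 CPM in the other C3-/- tumors. Spink1, the inhibitor that guards against early trypsin activity, was low throughout, at 10, 10, 9 and 5 counts in WT tumors, 93 counts in C3-/- replicate 1 and 1 count over the other C3-/- tumors. Cela2a, Cel, Sycn, Zg16 and Rbpjl overlap other genes, and with a strand setting not given in the sources used here their counts may include reads of those neighbours.

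The transcription factors did not share this order. Bhlha15 was at 2.55, 1.13, 1.28 and 1.32 CPM in WT replicates 1 to 4, 3.18 CPM in C3-/- replicate 1 and 3.14, 1.26 and 2.30 CPM in C3-/- replicates 2 to 4, so that C3-/- replicate 2 was close to replicate 1. Nr5a2 was highest in WT replicate 2 (0.435, 2.41, 0.904 and 0.979 CPM in WT replicates 1 to 4) and lay at 0.504 to 0.820 CPM in the C3-/- tumors, with 0.562 in C3-/- replicate 1. Both factors are known to be expressed in cells other than acinar cells.

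Rbpjl, the acinar partner of Ptf1a, came nearest to the enzymes. It was at 0.560, 0.980, 0.151 and 0.298 CPM in WT replicates 1 to 4, 2.85 CPM in C3-/- replicate 1 and 0.0560, 0 and 0.492 CPM in C3-/- replicates 2 to 4. C3-/- replicate 4 thus lay among the WT tumors. Its ratio of C3-/- replicate 1 over C3-/- replicates 2 to 4 was 14.8 (95% interval 7.55 to 32.5). Of the 10 counts of Rbpjl in C3-/- replicates 2 to 4, 9 lay in C3-/- replicate 4, and without that tumor the ratio was 96.2 (16.6 to 3863), resting on 1 count. Ptf1a had 2, 7, 0 and 0 counts in WT tumors, 2 in C3-/- replicate 1 and 0 in the others. With a count of 0 read as up to 3 counts, no difference in Ptf1a between C3-/- replicate 1 and the others was detectable at this depth.

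**Figure D2:**
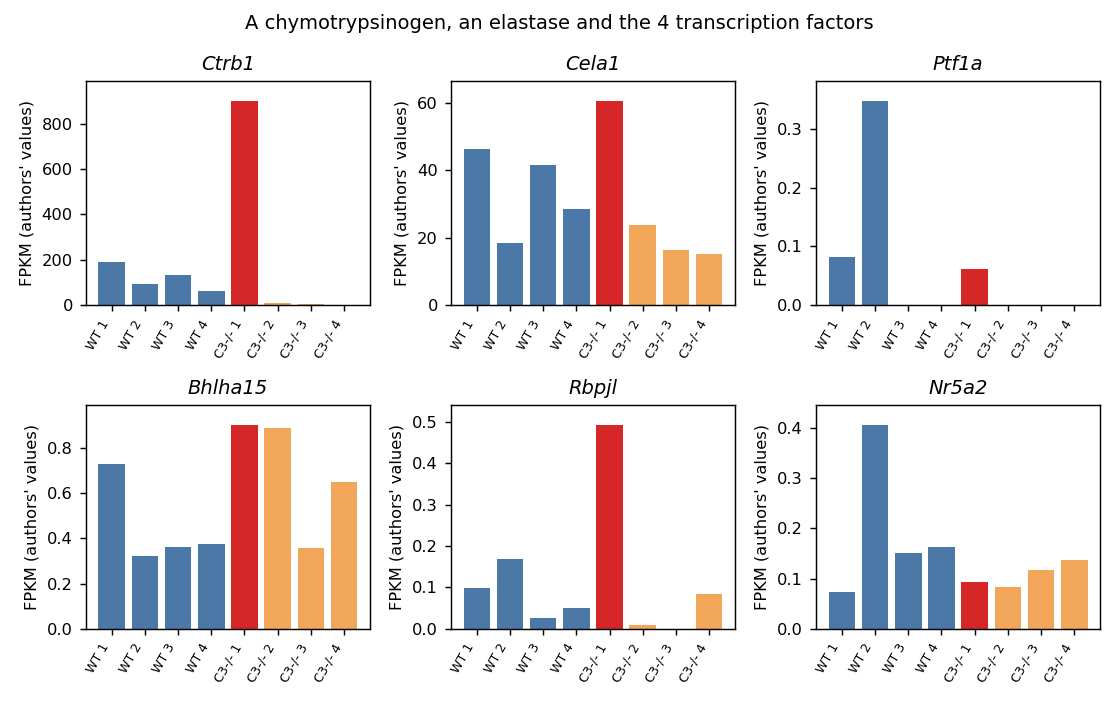
Authors' FPKM (counts per length and depth) of Ctrb1, Cela1 and the 4 transcription factors in each tumor, 1 bar per tumor, with WT in blue, C3-/- replicate 1 in red and the other C3-/- tumors in orange. Each panel has its own axis from 0, and Ctrb1 reaches 897 FPKM where none of the factors reaches 1.

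Per length, the enzymes and the factors were far apart in level. The 27 enzymes, granule proteins and inhibitor summed to 2289 FPKM in C3-/- replicate 1 and the 4 factors to 1.55 FPKM. In WT replicates 1 to 4 the former summed to 603, 211, 386 and 197 FPKM and the latter to 0.983, 1.24, 0.540 and 0.588 FPKM. In C3-/- replicates 2 to 4 the sums were 40.2, 25.8 and 21.8 FPKM against 0.979, 0.475 and 0.869 FPKM. The factor sums in these 3 tumors thus lay within or just below the range of the WT tumors, whereas the enzyme sums lay below each WT tumor. Most of the factor sum in these 3 tumors was Bhlha15, at 0.885, 0.359 and 0.648 FPKM. Ptf1a was at 0 there, and Rbpjl was at 0.00964, 0 and 0.0846 FPKM.

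Over the 27 genes that are not factors, the ratio of C3-/- replicate 1 to C3-/- replicates 2 to 4 was lowest in Cela1, at 3.27, and above 5 for the other 26. Of these, 5 are lower bounds against a floor of 3 counts. The median, 226, was the value of Spink1, which rests on 1 count in C3-/- replicates 2 to 4 (39.6 to 9034). For the factors it was 0.834 (0.394 to 1.65) in Nr5a2, 1.40 (1.03 to 1.91) in Bhlha15 and 14.8 in Rbpjl. The ratio of the WT tumors to the same 3 tumors had a median of 26.7 over the 27 genes, again with 5 lower bounds, and the smallest measured ratio was 1.80 in Cela1. This median was again the value of Spink1, resting on the same 1 count (4.49 to 1087). For the factors the ratio of the WT tumors was 0.693 in Bhlha15, 1.66 in Nr5a2 (1.098 to 2.56) and 2.44 in Rbpjl. The last became 15.8 (2.63 to 644) without C3-/- replicate 4. Ptf1a was not compared, since 7 of its 9 counts in WT tumors lay in WT replicate 2. Against the WT tumors, C3-/- replicate 1 was higher in all 27, by 1.82-fold in Cela1 to 92.4-fold in Amy2a2, with a median of 7.22.

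**Figure D3:**
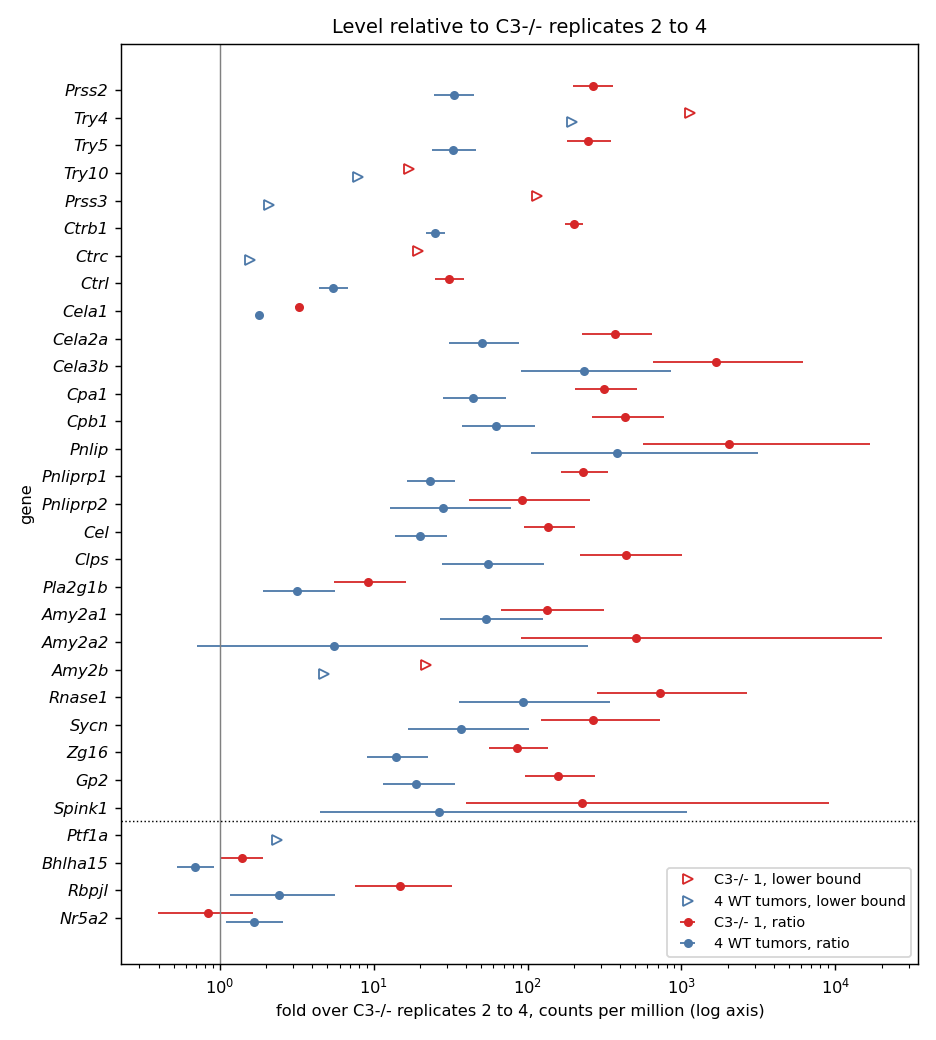
Ratio of C3-/- replicate 1 (red) and of the 4 WT tumors (blue) to C3-/- replicates 2 to 4, pooled over tumors, on a log axis, with 95% intervals that cover counting error only. Open triangles are lower bounds for genes with 0 counts in C3-/- replicates 2 to 4. Below the dotted line are the transcription factors, and the largest ratio among them is that of C3-/- replicate 1 in Rbpjl. Ptf1a has no ratio for C3-/- replicate 1.

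The proportions among the enzymes were compared by setting each to 100 counts of Ctrb1 in the same tumor. C3-/- replicate 1, with 17042 counts of Ctrb1, had 29.98 counts of Prss2 per 100 of Ctrb1, and WT replicates 1, 3 and 4 had 29.4, 25.3 and 29.1. For Cpa1 the values were 15.1 in C3-/- replicate 1 and 24.02, 12.6 and 13.5 in these WT tumors, and for Gp2 6.04 against 6.14, 7.99 and 6.50. These 3 genes are examples. By value alone, C3-/- replicate 1 lay below WT replicates 1, 3 and 4 in Try4, Try10, Ctrl, Cela1, Cpb1, Cel, Pla2g1b, Amy2a1, Zg16 and Gp2 and above them in Prss2, Prss3, Pnliprp1 and Amy2a2, by small steps in some and by larger ones in others (Amy2a1 2.59 against 6.59 to 13.9, Try4 8.21 against 11.5 to 15.0). Cela1 was at 17.7 per 100 in C3-/- replicate 1, 64.4, 80.6 and 120 in the same WT tumors and 767, 1436 and 1751 in C3-/- replicates 2 to 4. Bhlha15 went from 0.399 per 100 in C3-/- replicate 1 to 43.4, 47.6 and 114 in C3-/- replicates 2 to 4.

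WT replicate 2 had a mixture of its own. Its Ctrb1 level of 80.7 CPM (1071 counts) lay above that of WT replicate 4, and it held 38.4 counts of Prss2 and 43.0 of Try5 per 100 of Ctrb1, above the other WT tumors and C3-/- replicate 1. In the same tumor 14 genes fell below the range of those 4 tumors beyond counting error, and these were Try4, Ctrl, Cela2a, Cela3b, Cpa1, Cpb1, Pnlip, Pnliprp1, Cel, Clps, Rnase1, Sycn, Zg16 and Gp2. Try4 had 1 count, which allows at most 0.521 per 100 of Ctrb1 (95% interval) where the lowest of them had 8.21. Ctrl was 15.0-fold below the lowest of them, Cela2a 7.67-fold and Cpa1 1.29-fold. Try10 and Amy2b were above the range by the same rule together with Prss2 and Try5, and 8 genes lay within it or could not be placed. Try10 and Amy2b rest on 11 and 8 counts in WT replicate 2. WT replicate 2 was the lowest WT tumor for 19 of the 31 genes, against 17.5% of all 29968 genes, and the highest of all tumors for Ptf1a and Nr5a2.

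**Figure D4:**
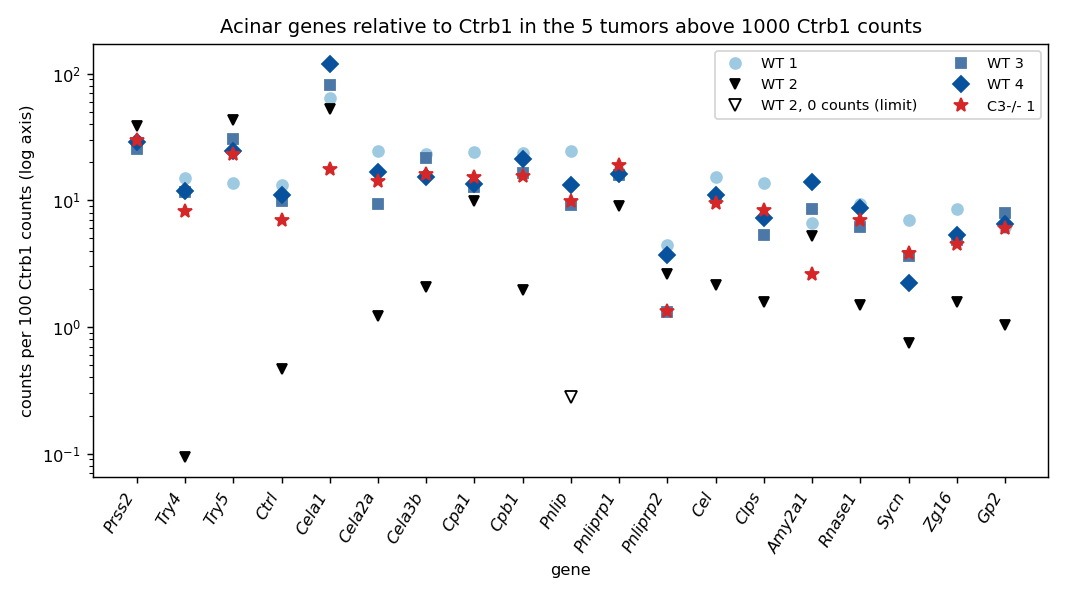
Counts per 100 counts of Ctrb1 on a log axis for the 4 WT tumors and C3-/- replicate 1, for enzyme and granule genes with at least 100 counts in both WT replicate 1 and C3-/- replicate 1, 1 symbol per tumor. WT replicate 2 (black) lies below the other 4 in most genes, at 1.21 for Cela2a and 2.05 for Cela3b, and the open triangle marks the limit that its 0 counts of Pnlip allow. C3-/- replicate 1 (red) lies below WT replicates 1, 3 and 4 in Try4, Ctrl, Cela1, Cpb1, Cel, Amy2a1, Zg16 and Gp2 and above them in Prss2 and Pnliprp1.

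Whether the genotypes differed was tested with all 8 tumors by edgeR's quasi-likelihood test, with p-values adjusted over all 16610 genes by the Benjamini-Hochberg method. Of the 24 acinar genes tested, 0 had an adjusted p below 0.05, and this held for 0% of all genes tested. At an unadjusted p below 0.05 there were 0 of the 24 and 848 of the 16610. DESeq2 called 0 of the 16 members to which it gave an adjusted p, where it called 0.0848% of 18864 genes. It gave no adjusted p to the other 15 members, among them Ctrb1, Cpa1, Prss2 and Try5, so they have no DESeq2 result with all 8 tumors. The log2 fold change of C3-/- over WT was above 0 in 19 and below 0 in 5 of the 24, with a median of 0.80 where that of all genes was -5.84e-05. Pnliprp1 had the largest, 1.27 (SE 1.505, adjusted p = 0.999 in edgeR), and Nr5a2 the lowest, -0.85 (SE 0.51, adjusted p = 0.986), which became -0.27 without WT replicate 2.

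On the log2 scale of CPM plus 0.1, the mean of Ctrb1 was 6.603 ± 0.68 over the 4 WT tumors and 3.76 ± 3.99 over the 4 C3-/- tumors (mean ± SD), a difference of -2.84 (exact two-sided permutation p = 0.171). That of Cpa1 was 3.79 ± 1.11 and 0.63 ± 4.40 (exact two-sided permutation p = 0.2, n = 4 each), and that of Nr5a2 was 0.14 ± 0.92 and -0.44 ± 0.27 (exact two-sided permutation p = 0.286, n = 4 each). The smallest p that 70 splits allow is 0.02857, and all 3 became 0.286 after Benjamini-Hochberg adjustment. The direction for Ctrb1 and Cpa1 was thus opposite in the mean of logs and in the fitted fold change of 0.94 and 0.80, which follows mean counts. Within the C3-/- group the SD of both genes was larger than the difference between the genotypes.

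The comparison changed sign when C3-/- replicate 1 was left out. This tumor is left out because of its acinar level, so the fit without it describes the remaining 7 tumors and is not independent evidence on the genotype. In that fit 3 of 24 acinar genes were called lower in C3-/- tumors by edgeR's quasi-likelihood test, where 0.0237% of 16882 genes were (4 genes). These 3 were Prss2, which changed by -5.13 on the log2 scale (SE 0.46, adjusted p = 0.00986), Try5, at -5.12 (SE 0.55, adjusted p = 0.0273), and Ctrb1, at -4.73 (SE 0.55, adjusted p = 0.0393). Most of these genes passed the filter on low counts through the WT tumors, in which they were high, so the shares that follow describe the genes tested and are no support for a difference. Among the 24, 21 had an unadjusted p below 0.05, 23 had a log2 fold change below 0, and the median was -4.94, where that of all genes was -0.00498. DESeq2 on the same 7 tumors called 16 of 23 acinar genes, all lower in C3-/- tumors, where it called 0.434% of 15893 genes lower. The gene with a fold change above 0 was Bhlha15 (log2 fold change 0.50, SE 0.42, adjusted p = 0.654 in edgeR), and that of Nr5a2 was -0.79 (SE 0.58, adjusted p = 0.612).

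**Figure D5:**
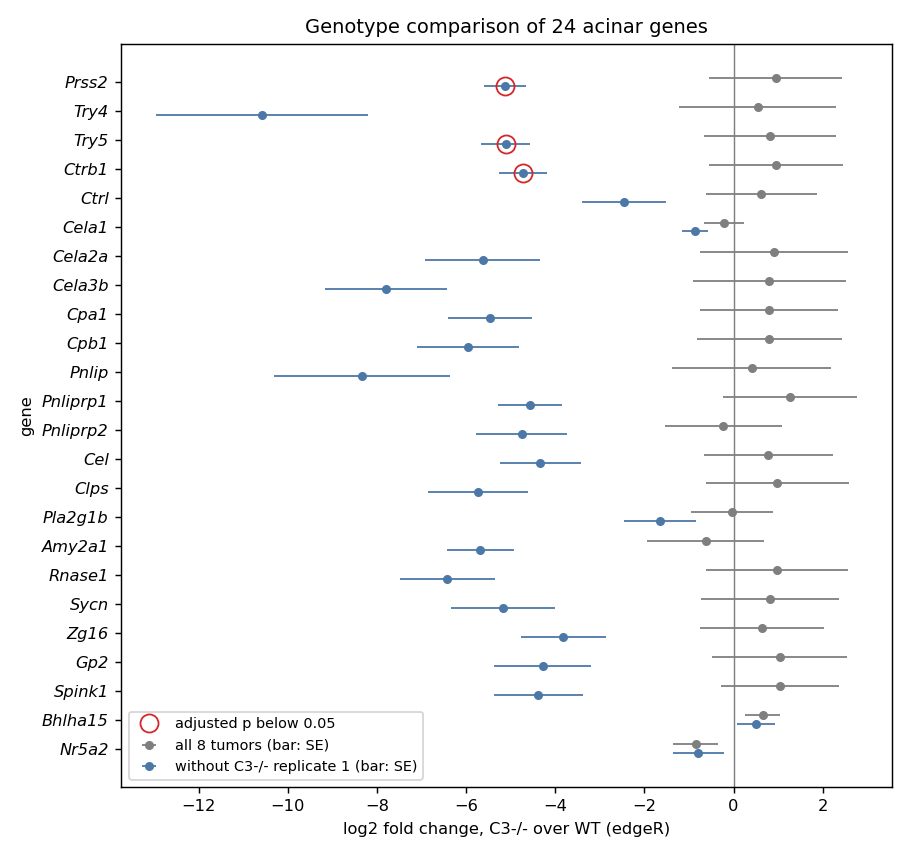
Log2 fold change of C3-/- over WT tumors from edgeR for the 24 acinar genes tested, with SE bars, for all 8 tumors (gray) and without C3-/- replicate 1 (blue). Red circles mark the 3 genes with an adjusted p below 0.05. The gray values lie near 0 with wide bars, between -0.85 and 1.27, and the blue ones reach -10.58 in Try4.

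Other genes of the acinar cell, from a list of 15, gave a mixed picture. C3-/- replicate 1 was the highest tumor for 9 of the 15, against 15.2% of all 29968 genes. Among the 9 were Klk1, a tissue kallikrein (36.4 CPM against at most 0.0630 CPM in the other C3-/- tumors), and Cuzd1 (10.8 CPM against at most 0.252 CPM). Gatm, an enzyme of creatine synthesis made in several tissues, was at 76.3 CPM in C3-/- replicate 1 and 76.3 to 103 CPM in all others. All 6 genes of the Reg family, which encode secreted lectins made by acinar cells, were highest in C3-/- replicate 1, against the same 15.2% of all genes. Their sum was 463 CPM there, 48.9 to 151 CPM in WT tumors and 5.63 to 17.0 CPM in the other C3-/- tumors. With all 8 tumors edgeR called 0 of the 10 other acinar genes tested (log2 fold change -0.58 in Fam71f1 to 1.32 in Pdia2) and 0 of 6 Reg genes (-0.09 in Reg3g to 1.34 in Reg3a). Without C3-/- replicate 1 edgeR called 1 of the 6 Reg genes, Reg2, lower in C3-/- tumors, where it called 0.0237% of 16882 genes lower. DESeq2 then gave an adjusted p to 9 of the other acinar genes and to 6 Reg genes, and it called 0.434% of 15893 genes lower. Its calls included Klk1 and Cuzd1 and 4 of the Reg genes, Reg2, Reg3a, Reg3b and Reg3d, all lower. C3-/- replicate 1 was left out because of its acinar level, so these calls are not independent evidence on the genotype.

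Transcription factors of the pancreas beyond the acinar set, 15 genes from Gata4 to Xbp1, summed to 970 to 1208 CPM in all 8 tumors, with 1091 in C3-/- replicate 1. The 16 genes of protein folding and secretion, of which Xbp1 is also on the former list, summed to 3030 to 3805 CPM, with 3623 in C3-/- replicate 1. By edgeR with all 8 tumors, 0 of the 13 and 0 of the 16 tested were called. Their log2 fold changes ran from -0.22 in Gata6 to 0.60 in Foxa3 and from -0.25 in Vamp8 to 0.28 in Ern1.

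Markers of other cells were summed by tumor to set beside the acinar genes. The 10 islet genes summed to 103 CPM in WT replicate 2 and to 0.498 to 4.65 CPM in the other tumors, with Ins2 at 425 counts in WT replicate 2 and at most 21 elsewhere. Of the 10, G6pc2 (22 counts in WT replicate 2) and Slc30a8 (2 counts) were at 0 in each of the other tumors, whereas Chga had counts in every tumor. WT replicate 2 is the tumor whose enzyme proportions departed from the rest, and the part of islet tissue in that result was not tested. The 10 duct genes summed to 8338 to 12492 CPM, with 11234 in C3-/- replicate 1. The 11 skeletal muscle genes summed to at most 2.94 CPM in WT replicates 2 and 3 and C3-/- replicate 2 and to 1314 to 3320 CPM in the other 5 tumors, C3-/- replicate 1 among them at 1789. The 8 hepatocyte genes summed to 75.5 CPM in WT replicate 4 and 13.1 to 27.3 CPM elsewhere, and the 6 leukocyte genes to 76.1 to 160 CPM. With all 8 tumors edgeR called 0 genes of these 5 lists, of which 1, 10, 10, 5 and 5 were tested, and DESeq2 called Tat, a hepatocyte gene, lower in C3-/- tumors.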

How the data were processed

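Tumor RNA was poly-A selected and sequenced as read pairs by the authors' provider and aligned to mm39. The paper names STAR and HTSeq, whereas the submitters' processing notes name HISAT2 2.0.5 and DESeq2 1.20.0; the strand setting was not given in the sources used here. The authors deposited raw counts per gene, which alone entered the tests. They also deposited normalized counts (a signal, the count over the size factor of the tumor), which were not tested, and FPKM values, which equal this signal over gene length up to 1 constant and were used to compare levels between genes. The authors' own DESeq2 columns (log2 fold change, p-value and its adjusted form, as deposited) were left out.

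Counts were fitted with edgeR 4.0.16 in R 4.3.3 (filterByExpr with a minimum count of 10, TMM, glmQLFit, glmQLFTest, Benjamini-Hochberg, adjusted p below 0.05), and CPM was scaled to the TMM-normalized total. Alternatives were DESeq2 1.42.0, its size factors, 2 other filters, the replicate number as a block and each tumor left out in turn. The fits were tested on simulated data. Exact permutation tests used log2 of CPM plus 0.1. Intervals of ratios and shares cover counting error only, and a group at 0 was set to 3 counts. The members, lists and tests were chosen with earlier results of these data known. All members, C3, and genes of the lists that were called or changed most were to be named. Gatm, Slc30a8, G6pc2, Ins2 and the amylases outside the list were named after their values were seen. The values of 1 gene of the lists are not reported here. Each tumor is a separate mouse. Promoters came from RefSeq GRCm38.p6, and shared 150-base windows from GENCODE transcripts of GRCm39.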

Additional observations from a re-analysis of the deposited data

Results flagged for a closer look

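In groups of 4 tumors, a value was singled out by its gap to the nearest other value, on log2 of CPM plus 0.1. The gap had to be a larger part of the range of the group than Dixon's 95% limit for 4 values. Of 64 groups examined, 15 held such a value, where chance gives about 1 in 20 for groups that vary independently, which these genes do not. In 14 of the 15 it was C3-/- replicate 1, the highest of its group, a tumor already known to stand apart, so that these values are a description. The CPM of that tumor was 239 in Prss2, 65.5 in Try4, 129 in Cela3b, 78.1 in Pnlip, 66.7 in Clps, 55.9 in Rnase1 and 30.8 in Sycn, and the other C3-/- tumors reached at most 1.34 CPM in these genes. It was 4.35 in Spink1, 6.69 in Prss3 and 9.78 in Amy2a2, and the other C3-/- tumors had at most 1 count of each. In Try10 (0.983 CPM), Ctrc (1.12 CPM), Amy2b (1.26 CPM) and Ptf1a (0.0936 CPM) the other C3-/- tumors were all at 0. The value of Ptf1a is 2 counts, no more than the 3 counts up to which a 0 was read, and shows no difference. The remaining value was Spink1 in WT replicate 4, which was low at 0.213 CPM where the other WT tumors had 0.622 to 0.754 CPM.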

How the results depend on the processing

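With all 8 tumors, the count of genes called was 0 in edgeR with its own or DESeq2's size factors, without a filter and with a minimum of 10 counts per tumor, and 16 in DESeq2, with 0 acinar genes in each. DESeq2 gave no adjusted p to 15 acinar genes, and the minimum of 10 counts per tumor left 3 of them to fit. The replicate numbers matched the tumors only in part (correlations of same-numbered deviations of -0.03, 0.49, -0.36 and 0.59). Each tumor with number 2 or 4 correlated best with its own number, and this did not hold for numbers 1 and 3. With the replicate number as a block, 0 genes were called and the acinar fold changes turned negative in 18 of 24 genes, at a log2 fold change of Prss2 -3.30, Try4 -3.13, Try5 -3.61, Ctrb1 -3.34, Ctrl -0.43, Cela2a -2.13, Cela3b -3.36, Cpa1 -2.90, Cpb1 -2.67, Pnlip -2.73, Pnliprp1 -2.51, Cel -1.80, Clps -2.13, Rnase1 -2.63, Sycn -1.70, Zg16 -1.52, Gp2 -1.66 and Spink1 -1.11.

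Leaving out 1 tumor at a time gave 0 to 4 genes called and 0 to 3 acinar genes, the highest values coming without C3-/- replicate 1. The log2 fold changes then ranged as follows. They were Prss2 -5.13 to 1.35, Try4 -10.58 to 1.27, Try5 -5.12 to 1.24, Ctrb1 -4.73 to 1.36, Ctrl -2.45 to 1.34, Cela2a -5.63 to 2.003, Cela3b -7.79 to 1.43, Cpa1 -5.46 to 1.59, Cpb1 -5.95 to 1.51, Pnlip -8.34 to 1.68, Pnliprp1 -4.57 to 1.70, Cel -4.33 to 1.53, Clps -5.74 to 2.12, Rnase1 -6.42 to 1.66, Sycn -5.18 to 1.94, Zg16 -3.82 to 1.49, Gp2 -4.28 to 1.44 and Spink1 -4.38 to 1.44. All of these turned negative without C3-/- replicate 1, and Pnlip also did without WT replicate 2. In Cela1 (-0.86 to 0.00201), Pnliprp2 (-4.75 to 0.54) and Pla2g1b (-1.66 to 0.38) the sign turned positive on leaving out other tumors. Amy2a1 (-0.63) stayed below 0, at -3.43 with the block and -5.69 to -0.22 on leaving out 1 tumor, and was called at -5.76 by DESeq2 without C3-/- replicate 1. Nr5a2 went from -1.13 to -0.27 on leaving out 1 tumor, the latter without WT replicate 2. DESeq2 without C3-/- replicate 1 gave 116 genes, 16 of them acinar, and log2 fold changes of Prss2 -5.14, Try4 -10.06, Try5 -5.12, Ctrb1 -4.74, Ctrl -2.46, Cela2a -5.70, Cela3b -7.97, Cpa1 -5.46, Cpb1 -6.02, Pnlip -8.62, Pnliprp1 -4.58, Cel -4.36, Clps -5.81, Rnase1 -6.58, Sycn -5.25, Zg16 -3.85, Gp2 -4.34 and Spink1 -4.76. C3 was called by DESeq2 with all 8 tumors (log2 fold change -1.42) and without C3-/- replicate 1 (-1.41), and had -1.55 to -1.19 on leaving out 1 tumor in edgeR. With C3-/- replicate 1 and WT replicate 2 both left out, a choice made after seeing the data, edgeR called 13 genes, 9 of them acinar and all 9 lower. Leaving out C3-/- replicate 4, likewise chosen afterwards, moved the ratios of Rbpjl to the other C3-/- tumors from 14.8 to 96.2 for C3-/- replicate 1 and from 2.44 to 15.8 for WT tumors.

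Depth limits the genes at few counts. Try10, Prss3, Ctrc, Amy2a2, Amy2b, Ptf1a and Rbpjl had too few counts for the main edgeR fit, and 6 of the 31 genes were at 0 counts in each of C3-/- replicates 2 to 4. Without a filter edgeR fitted all 31 genes and called 0 of them. The ratios of the enzymes rest there on few counts. With a minimum of 10 counts per tumor, 3 acinar genes were left to fit.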

Other observations

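Amylase copies outside the list had the order of the enzymes and differed in which WT tumor was highest. Of the 150-base windows of Amy2a3 and Amy2a4, 100% occur in other amylase genes, and of those of Amy2a5, 41.76%, so that their counts are uncertain. Amy2a4 had 0.871, 4.82, 5.20 and 1.23 CPM in WT replicates 1 to 4 and 22.9 CPM in C3-/- replicate 1. In C3-/- replicates 2 to 4 it had 0 counts. Amy2a3 was highest among WT tumors in WT replicate 1 (4.29 CPM, against 0.603 to 0.723 CPM) and Amy2a5 in WT replicate 4 (3.70 CPM, against 0.904 to 0.933 CPM). Both were highest of all in C3-/- replicate 1, at 11.0 and 4.21 CPM, and at most 0.168 CPM in C3-/- replicates 2 to 4. Amy1, the salivary and liver amylase gene, was at 1.37, 4.75, 0.8287 and 5.36 CPM in WT tumors and at 1.39 to 3.34 CPM in C3-/- tumors, with 2.95 CPM in C3-/- replicate 1.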
